A study of Mus musculus with 18 samples.

Results

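Steroid dehydrogenases and reductases are the enzymes with which hepatocytes oxidise or reduce hydroxyl and keto groups and double bonds of circulating steroids, and 8 of their genes are described here across the 6 groups of a mouse liver RNA-seq series. The members were the rows of the deposited count table whose symbol was Hsd3b2, Hsd3b3, Hsd3b5, Hsd11b1, Hsd17b2, Hsd17b6, Hsd17b13 or Srd5a1, which is 8 of 52636 genes, and all 8 passed the filter on low counts that left 13958 genes for testing. The series, on inducible loss of Bmal1 (gene symbol Arntl) and HNF4α in the liver, holds 18 libraries, 3 from each group. H-WT and H-KO carry by their strain label the conditional allele Hnf4atm1.1Gonz together with Albtm1(cre/ERT2)Mtz, a tamoxifen-activated Cre placed at the albumin locus. BH-WT, BH-KO, BH-HF-WT and BH-HF-KO add the conditional allele Arntltm1Weit. All 6 groups, the WT ones included, are labelled as given tamoxifen (10 mg/mL in corn oil, intraperitoneal) on 5 days in a row at 8 weeks of age. H and BH livers came from mice of 10 weeks, and BH-HF livers from mice of 45 weeks that had eaten a high-fat diet for 35 weeks from week 10, so that age and diet cannot be told apart in any comparison of BH-HF with BH. WT and KO mice of a line have the same strain label, and the labels do not say what made a mouse WT. Livers were taken at ZT8 (zeitgeber time, hours after lights on).

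The enzymes fall into classes by substrate and direction. The Hsd3b family oxidises the hydroxyl group at carbon 3 of the steroid ring and shifts the ring's double bond, the step that turns pregnenolone and dehydroepiandrosterone into hormones with a keto group, and mouse Hsd3b5 is known instead as a reductase of adult male liver. Hsd11b1 regenerates active glucocorticoid from its inactive keto form inside the hepatocyte. Hsd17b2 oxidises estradiol and testosterone to weaker forms, Hsd17b6 acts on androgen metabolites and on retinol, Hsd17b13 sits on lipid droplets, and Srd5a1 reduces the ring double bond of testosterone and glucocorticoids. HNF4α is a nuclear receptor that drives many hepatocyte genes, and Bmal1 is a core transcription factor of the circadian clock.

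The 3 Hsd3b members lie side by side on the minus strand of mouse chromosome 3 (mm10, GENCODE M21): Hsd3b5 at chr3:98618634-98630252, Hsd3b2 at chr3:98709255-98724543 and Hsd3b3 at chr3:98741523-98763127. Over their 1122 coding bases Hsd3b2 and Hsd3b3 were identical at 95.1%, and each was identical to Hsd3b5 at 80.5%. The first 90 coding bases of the 3 genes are shown because they make visible how little separates the first pair, with the 16 positions at which the 3 genes are not all alike in capitals.
Hsd3b2: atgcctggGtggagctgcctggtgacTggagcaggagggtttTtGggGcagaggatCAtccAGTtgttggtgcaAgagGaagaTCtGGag
Hsd3b3: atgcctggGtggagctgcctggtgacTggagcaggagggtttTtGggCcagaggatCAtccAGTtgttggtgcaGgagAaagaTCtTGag
Hsd3b5: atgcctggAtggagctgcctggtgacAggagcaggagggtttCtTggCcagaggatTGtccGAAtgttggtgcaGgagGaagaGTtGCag
In this stretch Hsd3b3 differed from Hsd3b2 at 4 positions and Hsd3b5 differed from it at 14. Of all 50-base windows of the coding sequence, 35.8% of those of Hsd3b2 and 34.0% of those of Hsd3b3 also occurred in another Hsd3b gene, nearly all of them in each other, and 26.2% of those of Hsd3b5 did, nearly all in Hsd3b4. The treatment of reads that match several genes is not stated in these sources, so the split of counts among these genes is uncertain, and their sum over the 3 members is given beside the single values. The other Hsd3b genes carried almost nothing: Hsd3b4 and Hsd3b7 had 0 counts in all 18 libraries, and Hsd3b1 and Hsd3b6 had at most 2 counts in any library, so none of the 4 could be tested. For Hsd3b7, 62% of the exon bases are shared with another annotated gene on the same strand, Gm49388.

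The sequences before the RefSeq start sites (GRCm38.p6) of Hsd3b3 and Hsd3b5 are shown because these genes had similar upstream letters and, in the values that follow, different levels at 10 weeks. Both are the 250 bases before the start, read on the minus strand, at chr3:98763129-98763378 for Hsd3b3 and chr3:98645535-98645784 for Hsd3b5, the latter lying outside the GENCODE M21 span of the gene. Capitals mark the longest run of bases that both share, 24 in all.
Hsd3b3: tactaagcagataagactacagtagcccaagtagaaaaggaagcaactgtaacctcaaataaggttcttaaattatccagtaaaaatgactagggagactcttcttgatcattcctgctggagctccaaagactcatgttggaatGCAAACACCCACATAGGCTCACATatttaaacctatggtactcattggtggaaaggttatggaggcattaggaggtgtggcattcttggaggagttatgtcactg
Hsd3b5: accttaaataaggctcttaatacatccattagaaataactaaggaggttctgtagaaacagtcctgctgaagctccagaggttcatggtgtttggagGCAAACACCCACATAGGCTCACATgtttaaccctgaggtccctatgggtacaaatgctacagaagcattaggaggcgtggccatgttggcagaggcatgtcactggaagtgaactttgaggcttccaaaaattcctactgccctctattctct
Over 247 aligned bases, 188 (76.1%) were the same in the 2 promoter windows, which add the first 50 bases of the transcript. The window of Hsd3b2 aligned with that of Hsd3b3 over 33 bases only, 29 of them identical. Both strands of the windows of the 7 members with a RefSeq entry (9 windows, with none for Hsd17b2) were searched for the HNF4-type letters CAAAGTCCA, the related letters CAAAGGTCA and the E-box CACGTG, which occur in 0.475%, 0.478% and 7.15% of all 32851 windows of this length. The only matches were in the 2 windows of Hsd3b3, and the stretch around one, with its 9-letter match in capitals, is set beside the aligned stretch of Hsd3b5.
Hsd3b3: tcactgaaagTGGACTTTGaagcttccag
Hsd3b5: tcactggaagTGAACTTTGaggcttccaa
Both stretches are read on the minus strand, at chr3:98763106-98763134 and chr3:98645560-98645588. The capitals begin at position 5 of Hsd3b3, after its RefSeq start, and at position -44 of Hsd3b5, before its start. The 2 windows of Hsd3b3 lie apart but hold nearly the same letters, and the match of the other one begins at position 4. In the capitals the Hsd3b5 stretch carries the substitution G3A, counted from 1 at the 5′ end of the capital run. These matches describe letters, and no binding was measured.

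Before any comparison, the libraries were checked against their labels. Total counts ran from 6846471 to 9816124 per library, and levels are given as CPM, counts relative to library size after scaling with TMM factors, for which 3 counts correspond to between 0.264 and 0.479 CPM. Hnf4a, counted over the whole gene so that the deleted part is not separated, was at 801, 887 and 580 CPM in H-WT and 564, 656 and 555 CPM in H-KO. In BH-WT it was at 788, 887 and 770 CPM, and in BH-KO at 865, 499 and 494 CPM. In BH-HF-WT it ranged from 767 to 839 CPM and in BH-HF-KO from 819 to 977 CPM, so in those labels the KO libraries did not lie lower. Arntl, also counted over the whole gene, was at 17.3, 22.3 and 24 CPM in BH-KO and at most 2.6 CPM in the other 15 libraries, those labelled BH-HF-KO included. BH-HF-KO therefore differs from BH-KO in the mark of the targeted gene, and these are called the libraries labelled BH-HF-KO throughout. The library of BH-KO replicate 1 stood apart from its group: its counts differed from those of replicates 2 and 3 by a chi-square per degree of freedom of 138 and 145, against 16.5 between those 2, and results that rest on BH-KO are given with and without it. H-WT replicate 3 had 1082 CPM of Xist and 5.73 CPM of Ddx3y, where every other library had at most 3.89 CPM and at least 115 CPM. In bulk liver, fewer cells of a type and less RNA per cell cannot be told apart. The summed level of 9 hepatocyte markers was 103000 to 112000 CPM in H-WT and 29400 to 39400 CPM in H-KO, and that of 8 cholangiocyte markers 50.4 to 74.9 and 137 to 201 CPM. The same sums were 108000 to 137000 and 55.9 to 118 CPM in BH-WT, 40300 to 92300 and 135 to 378 CPM in BH-KO, and for hepatocytes 118000 to 138000 CPM in BH-HF-WT and 73900 to 85700 CPM in the libraries labelled BH-HF-KO. Single genes weigh heavily in these sums. In H-KO against H-WT, 4 of the 9 hepatocyte markers fell and none rose, with a median log2 difference of -1.39. Of 6 cholangiocyte markers tested there, 4 rose and none fell, with a median of 1.44. Among all tested genes 19.1% fell and 15.8% rose in that comparison. Alb had a mean of 78950 CPM in BH-HF-WT and 34940 CPM in the libraries labelled BH-HF-KO. The median log2 difference of the 9 hepatocyte markers there was -0.0239. In BH-KO against BH-WT, Alb fell and Apoa1 rose, and the median log2 difference of the 9 hepatocyte markers was -0.367. With BH-KO replicate 1 left out, 5 of the 9 fell and 1 rose, with a median of -1.39 (21.6% of all tested genes fell). That replicate had the highest hepatocyte sum of BH-KO (92250 CPM) and the lowest cholangiocyte sum (135 CPM). Spp1 went from 35.05 CPM in BH-WT to 183.5 CPM in BH-KO by mean, while the median log2 difference of the cholangiocyte markers was -0.0579. With that replicate left out the median was -0.971, and of 7 tested cholangiocyte markers 3 rose and 3 fell. The part of these markers in the results was not tested. Of the markers of steroid-producing glands, Nr5a1, Mc2r and Cyp11b1 were at 0 counts in every library and Cyp11a1 had at most 1. The sum of all 10 such markers was 67.2 to 90.1 CPM in BH-WT and 146 to 161 CPM in BH-HF-WT, where Fdx1 (75.1 against 143 CPM by mean, adjusted p = 0.00923) and Cyp21a1 (0.213 against 7.83 CPM, adjusted p = 0.0164) rose. The sum was 82.6 to 134 CPM in H-WT and 33.7 to 39.5 CPM in H-KO, where both genes fell. Most of each sum was Fdx1, at a mean of 95.3 CPM in H-WT and 30.2 CPM in H-KO. Of the 10 markers, 5 or 6 were at 0 in each group and 3 could be tested, so these sums do not stand for the list as a whole. The part of these markers was not tested either.

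Most of the members fell in KO livers of the H line. Against H-WT, 5 of 8 members fell in H-KO (Hsd3b2, Hsd3b3, Hsd11b1, Hsd17b2 and Srd5a1) and none rose at an adjusted p under 0.05 by edgeR, where 34.9% of all tested genes were called in either direction and 19.1% fell. The median log2 difference of the members was -1.38 and that of all tested genes was -4.72e-05. The same 5 members fell when H-WT replicate 3 was left out. For 7 of 8 members no H-KO library reached any H-WT library, all 7 lower in H-KO, as 25.9% of all tested genes were separated that way.

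**Figure D1:**
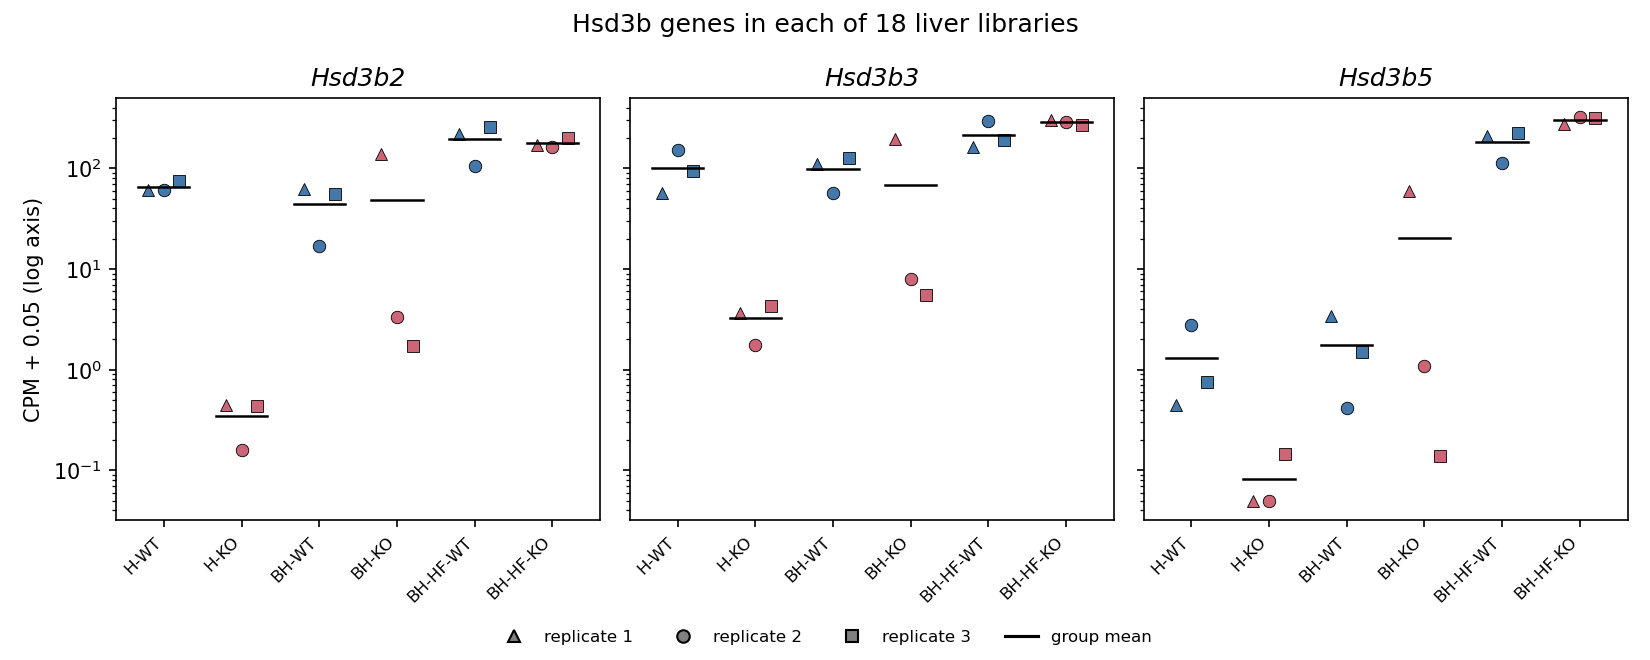
Levels of Hsd3b2, Hsd3b3 and Hsd3b5 in each of the 18 libraries, as CPM + 0.05 on a log axis by group, with a symbol for each replicate and a line for the group mean. H-KO has the lowest mean for all 3 genes, BH-KO replicate 1 lies far above replicates 2 and 3, and Hsd3b5 exceeds 100 CPM only in the BH-HF groups.

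Among the Hsd3b genes, Hsd3b2 was at 61.3, 60.3 and 74.3 CPM in H-WT and at 0.400, 0.108 and 0.389 CPM in H-KO, which is 4, 1 and 4 counts. No H-KO library came near an H-WT library. The log2 difference was -7.68 ± 1.67 (SE, adjusted p = 0.00315), which did not pass with limma-voom (adjusted p = 0.08). Hsd3b3 was at 57.2, 151 and 94.0 CPM in H-WT and at 3.60, 1.73 and 4.28 CPM in H-KO, again without overlap, and fell by 4.96 ± 1.14 on the log2 scale (adjusted p = 0.00445). Hsd3b5, the reductase of male liver, was low in both: 0.398, 2.71 and 0.699 CPM in H-WT, and 0, 0 and 0.0972 CPM in H-KO, which is a single count over the group. That is 30 counts against 1, a ratio of 38.9 with an exact 95% interval of 6.47 to 1590 for counting error alone, and its log2 difference of -4.75 ± 3.45 did not pass (adjusted p = 0.313). Taken as 1 sum, which does not depend on how reads were split among the 3 genes, the level was 167 ± 47.7 CPM (SD, n = 3) in H-WT and 3.53 ± 1.52 CPM (SD, n = 3) in H-KO. Any reads left out of the counts because they match several genes would be missing from this sum too. The lowest H-WT sum was 119 CPM and the highest H-KO sum 4.76 CPM.

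**Figure D2:**
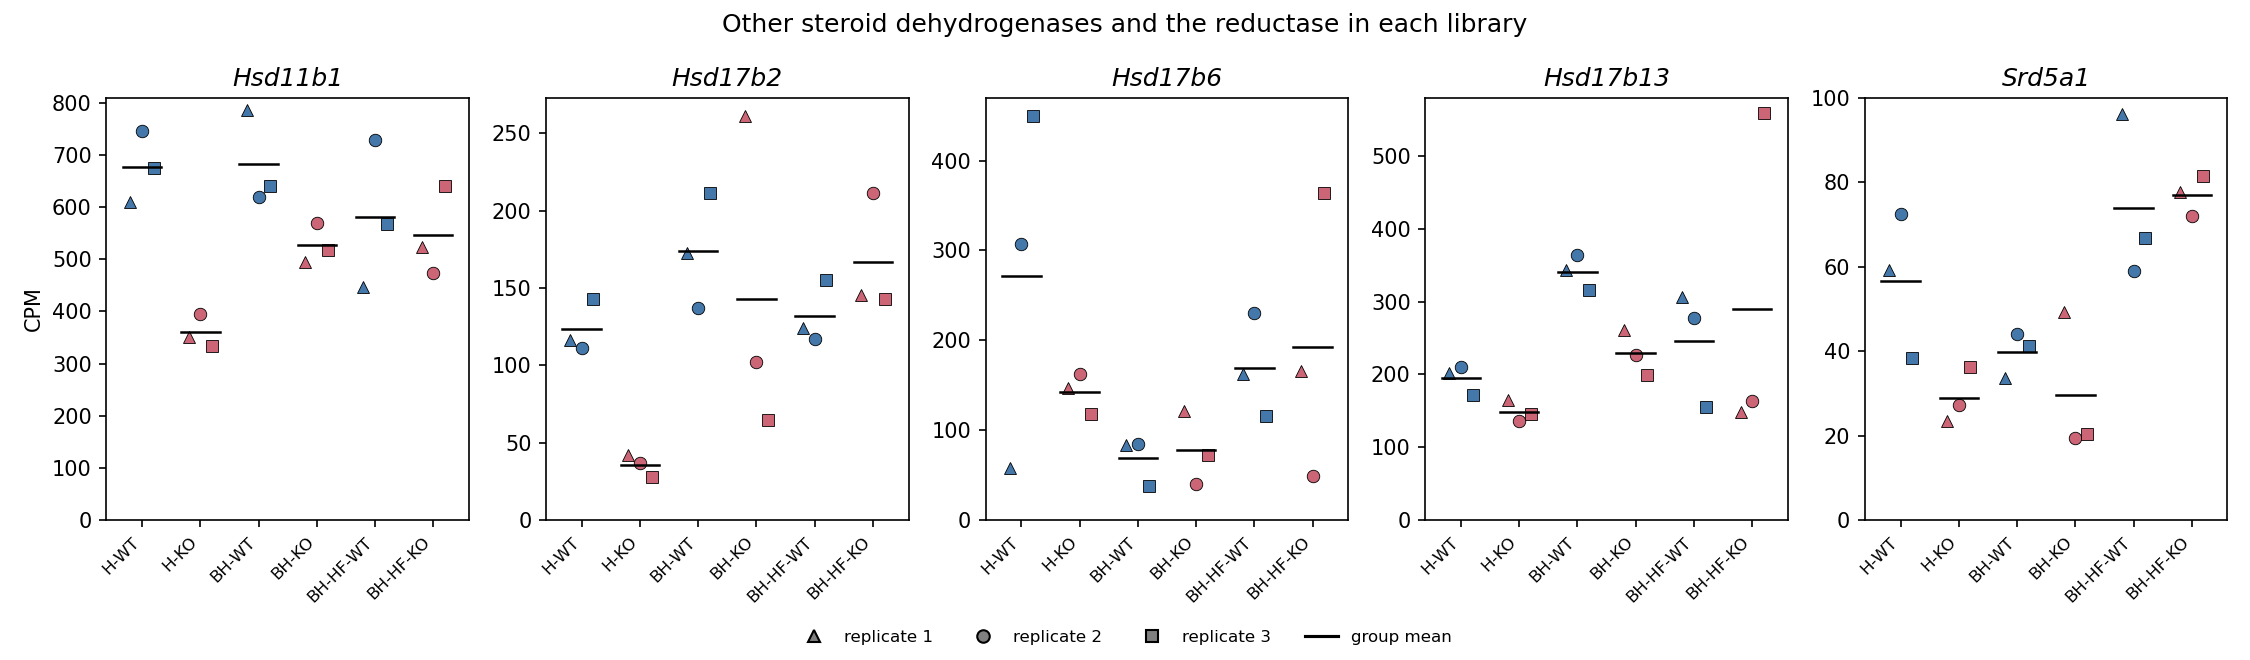
Levels of Hsd11b1, Hsd17b2, Hsd17b6, Hsd17b13 and Srd5a1 in each library, in CPM on linear axes from 0, by group, with a symbol for each replicate and a line for the group mean. H-KO lies below H-WT in every library for Hsd11b1, Hsd17b2, Hsd17b13 and Srd5a1, while the H-WT libraries of Hsd17b6 spread from 57.3 to 449 CPM.

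Hsd11b1 (mm10, chr1:193221634-193264075, minus strand), the activator of glucocorticoids, was at 610, 747 and 675 CPM in H-WT and at 351, 395 and 335 CPM in H-KO. The groups did not overlap, and the level fell by 0.91 ± 0.181 on the log2 scale (adjusted p = 0.00127). Hsd17b2 (chr8:117701904-117759027, plus strand), which inactivates estradiol and testosterone, was at 117, 111 and 143 CPM in H-WT and at 42.1, 36.5 and 27.5 CPM in H-KO. It fell by 1.80 ± 0.386 (adjusted p = 0.00255), with the highest H-KO library far under the lowest H-WT one. Srd5a1 (chr13:69573449-69611442, minus strand), the reductase of testosterone, was at 59.2, 72.5 and 38.3 CPM in H-WT and at 23.5, 27.3 and 36.2 CPM in H-KO. Its groups were barely apart, and the fall of 0.96 ± 0.324 (adjusted p = 0.0319) was not called without H-WT replicate 1 (adjusted p = 0.0708), H-WT replicate 2 (0.124), H-KO replicate 1 (0.114) or H-KO replicate 2 (0.0898), nor with upper-quartile scaling (0.0535) or without a filter (0.104). Its exons share 16.4% of their bases with Gm17108 on the same strand, whose reads cannot be told apart from its own.

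The remaining members of the H line did not pass. Hsd17b13 (chr5:103955440-103977410, minus strand), the lipid droplet protein, was at 203, 210 and 172 CPM in H-WT and at 165, 136 and 146 CPM in H-KO, with a log2 difference of -0.39 ± 0.386 (adjusted p = 0.476). The groups did not overlap, but the gap between the closest libraries was small. Hsd17b6 (chr10:127990936-128007611, minus strand), which acts on androgen metabolites, was at 57.3, 308 and 449 CPM in H-WT and at 147, 162 and 118 CPM in H-KO. Replicate 1 of H-WT lay below every H-KO library and the other two well above, and the log2 difference was -0.93 ± 0.712 (adjusted p = 0.34).

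In the BH line at 10 weeks, the result hung on 1 library. Against BH-WT, 0 of 8 members passed in BH-KO by edgeR, where 28.6% of all tested genes did; 1 member had an unadjusted p under 0.05, 1 member passed with limma-voom, and 0 of the 7 members with an adjusted p passed with DESeq2. Without BH-KO replicate 1, 4 of 8 members fell (Hsd3b2, Hsd3b3, Hsd17b2 and Srd5a1), where 41% of all tested genes were called and 21.6% fell. For 2 of 8 members, Hsd11b1 and Hsd17b13, every BH-KO library lay below every BH-WT library, as 16.8% of all tested genes were separated that way.

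Hsd3b2 was at 61.9, 16.8 and 55.4 CPM in BH-WT and at 139, 3.32 and 1.67 CPM in BH-KO. Replicate 1 of BH-KO was above every BH-WT library and the other 2 below every one. The log2 difference was 0.08 ± 1.04 (adjusted p = 0.961) with all libraries, and without BH-KO replicate 1 the gene fell by 4.16 ± 0.615 (adjusted p = 0.000199), so its direction turned. Hsd3b3 had the same shape, at 111, 56.7 and 128 CPM in BH-WT and 194, 7.87 and 5.45 CPM in BH-KO, with -0.53 ± 0.928 (adjusted p = 0.697) over all libraries and a fall of 3.88 ± 0.513 (adjusted p = 6.7e-05) without that replicate. Hsd3b5 was at 3.36, 0.367 and 1.44 CPM in BH-WT and at 59.2, 1.04 and 0.0879 CPM in BH-KO. Replicate 1 alone carried 399 of the 411 counts of the group. Its log2 difference of 3.50 ± 1.41 did not pass (adjusted p = 0.0781), nor did -1.59 ± 1.03 without that replicate (adjusted p = 0.238). It passed as higher in BH-KO without replicate 2 (adjusted p = 0.0481) or replicate 3 (0.0264), which leaves replicate 1 with more weight. The sum of the 3 genes was 392, 12.2 and 7.21 CPM in BH-KO, against 73.8 to 185 CPM in BH-WT.

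Hsd17b2 was at 173, 137 and 212 CPM in BH-WT and at 261, 102 and 64.8 CPM in BH-KO, once more with replicate 1 on top and the others beneath the BH-WT range. The log2 difference was -0.29 ± 0.372 (adjusted p = 0.59), and without BH-KO replicate 1 the gene fell by 1.06 ± 0.251 (adjusted p = 0.00399). Srd5a1 was at 33.8, 44.1 and 41.3 CPM in BH-WT and at 49.2, 19.4 and 20.4 CPM in BH-KO. It too had replicate 1 as the highest library of the 2 groups, with -0.44 ± 0.326 (adjusted p = 0.329) over all libraries and a fall of 0.996 ± 0.26 (adjusted p = 0.00719) without it.

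Hsd11b1 and Hsd17b13 were the members for which BH-KO replicate 1 did not leave its group. Hsd11b1 was at 787, 620 and 641 CPM in BH-WT and at 494, 570 and 517 CPM in BH-KO, a log2 difference of -0.37 ± 0.179 (adjusted p = 0.129), and -0.33 ± 0.19 without replicate 1 (adjusted p = 0.177). Hsd17b13 was at 344, 364 and 316 CPM in BH-WT and at 262, 227 and 199 CPM in BH-KO, a log2 difference of -0.57 ± 0.386 (adjusted p = 0.276), and -0.68 ± 0.462 without replicate 1 (adjusted p = 0.257). It was called as lower only when BH-HF-KO replicate 3, a library outside this comparison that shares the estimate of spread, was left out (adjusted p = 0.0433). For both, all 3 KO libraries were below all 3 WT libraries and the difference did not pass. Hsd17b6 was at 83.2, 84.8 and 37.5 CPM in BH-WT and at 121, 40.1 and 72.7 CPM in BH-KO, which overlap, with 0.18 ± 0.714 (adjusted p = 0.87), and -0.28 ± 0.833 without BH-KO replicate 1 (adjusted p = 0.81).

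**Figure D3:**
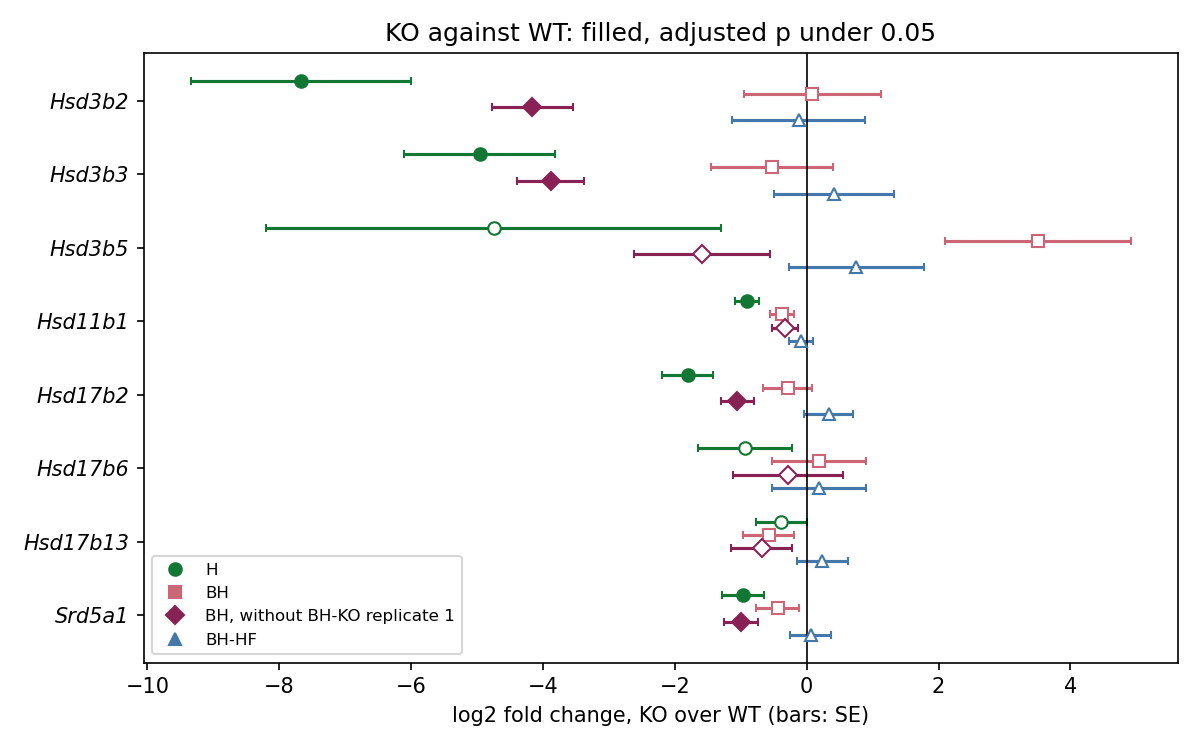
Log2 difference of KO over WT for each member in the H, BH and BH-HF settings, and in BH without BH-KO replicate 1; bars are 1 SE and filled symbols passed at an adjusted p under 0.05 by edgeR. The filled symbols are 5 in H, 4 in BH without that replicate, and none in BH or BH-HF with all libraries.

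The KO differences of the 2 lines were compared with each other in an interaction term, the BH difference minus the H difference. Hsd3b2 was the 1 member that passed, at 7.76 ± 2.01 (adjusted p = 0.0378), where 6.06% of all tested genes did and 3.76% with a positive value. Without BH-KO replicate 1 it was 3.52 ± 1.10 and did not pass (adjusted p = 0.068; 8.65% of all tested genes did), and the call was also lost when any 1 of 14 other libraries was left out, at adjusted p values up to 0.101. Hsd3b3 at 4.44 ± 1.43 (adjusted p = 0.0816) and Hsd17b2 at 1.52 ± 0.532 (adjusted p = 0.103) did not pass, and no other member did. Without BH-KO replicate 1 these were 1.08 ± 0.649 (adjusted p = 0.326) and 0.75 ± 0.328 (adjusted p = 0.167). The WT groups of the 2 lines gave 0 of 8 members past the threshold in BH-WT against H-WT (0.165% of all tested genes). Hsd17b6 came closest, at -1.98 ± 0.735 (adjusted p = 0.463), and Hsd17b13 was the 1 member with separate groups, 316 to 364 CPM in BH-WT above 172 to 210 CPM in H-WT (7.61% of all tested genes were separated that way).

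Between the KO groups, 5 of 8 members were higher in BH-KO than in H-KO at an adjusted p under 0.05, where 16.4% of all tested genes were called and 10.1% rose. They were Hsd3b2 (7.21 ± 1.67 on the log2 scale, adjusted p = 0.0111), Hsd3b3 (4.398 ± 1.12, 0.018), Hsd3b5 (8.62 ± 2.31, 0.0224), Hsd17b2 (2.01 ± 0.389, 0.00358) and Hsd11b1 (0.55 ± 0.18, 0.0479). For Hsd3b5 that is 411 counts against 1, of which replicate 1 held 399, and the groups overlapped at their low ends. Without BH-KO replicate 1, Hsd17b2 (1.24, adjusted p = 0.00365) and Hsd11b1 (0.60, adjusted p = 0.0425) remained higher, and the Hsd3b members did not pass (14.3% of all tested genes were called and 8.46% rose). The Hsd11b1 call was lost in 16 of 27 alternatives, among them upper-quartile scaling (adjusted p = 0.0835), no filter (0.0544), the 2 groups alone (0.0755) and leaving out any H-KO library (0.0805 to 0.148). Leaving out any 1 H-KO library left between 1 and 2 members, and a fit of the 2 groups alone, in which Hsd3b5 was not tested, left 0. The comparisons between lines reuse the libraries of the comparisons within them.

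The highest group means of the Hsd3b genes were in the older livers on the high-fat diet. Against BH-WT, Hsd3b5 rose in BH-HF-WT and was the 1 of 8 members called (7% of all tested genes were called and 2.79% rose). For 6 of 8 members the BH-WT and BH-HF-WT libraries did not overlap, 5 higher and Hsd17b13 lower, as 31% of all tested genes did not. Hsd3b5 was at 208, 113 and 223 CPM in BH-HF-WT, where BH-WT had at most 3.36 CPM. The log2 difference was 6.73 ± 1.45 (adjusted p = 0.0175), a fold of 106, and the call was lost without BH-WT replicate 2 (adjusted p = 0.0957) and without BH-WT replicate 3 (0.0577). DESeq2 gave no adjusted p for Hsd3b5 in any comparison. Hsd3b2 was at 219, 106 and 256 CPM in BH-HF-WT, above every BH-WT library, at 2.12 ± 1.06 (adjusted p = 0.244). Hsd3b3 was at 165, 294 and 191 CPM there, at 1.14 ± 0.929 (adjusted p = 0.503). The sum of the 3 genes was 591 ± 78.9 CPM in BH-HF-WT and 145 ± 61.7 CPM in BH-WT (SD, n = 3 each), a difference larger than either spread.

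Of the other members, Srd5a1 was at 96.2, 59.0 and 66.8 CPM in BH-HF-WT, all above BH-WT, at 0.90 ± 0.323 (adjusted p = 0.105). With BH-KO replicate 1 left out of the shared fit, 3 members rose in BH-HF-WT against BH-WT, Hsd3b2 (adjusted p = 0.00803) and Srd5a1 (adjusted p = 0.0189) joining Hsd3b5, where 12.3% of all tested genes were called. Hsd17b6 was at 163, 230 and 115 CPM in BH-HF-WT, also above BH-WT, at 1.30 ± 0.722 (adjusted p = 0.294). Hsd11b1 at 447, 728 and 568 CPM and Hsd17b2 at 124, 117 and 155 CPM overlapped BH-WT, with log2 differences of -0.23 ± 0.179 and -0.40 ± 0.373 that did not pass. Hsd17b13 was at 307, 277 and 155 CPM, at -0.47 ± 0.386 (adjusted p = 0.502).

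Between the high-fat groups no gene was called: 0 of 8 members and 0% of all tested genes passed in the libraries labelled BH-HF-KO against BH-HF-WT by edgeR, no member had an unadjusted p under 0.05 or passed with limma-voom, and none of the 7 with an adjusted p passed with DESeq2. Hsd3b5 was the 1 member whose groups did not overlap, higher in the former (5.67% of all tested genes), at 275, 322 and 319 CPM in the libraries labelled BH-HF-KO, with 0.75 ± 1.03 on the log2 scale (adjusted p = 1). Hsd3b2 at 172, 162 and 199 CPM and Hsd3b3 at 305, 292 and 270 CPM lay within or just above the BH-HF-WT range. The largest spread was in Hsd17b13 at 148, 164 and 559 CPM and in Hsd17b6 at 166, 48.4 and 364 CPM, replicate 3 being highest in both. Srd5a1 at 77.7, 72.1 and 81.4 CPM, Hsd17b2 at 145, 212 and 143 CPM and Hsd11b1 at 524, 473 and 641 CPM overlapped BH-HF-WT. The KO difference in BH-HF minus that in BH at 10 weeks passed for 0 of 8 members (6.1% of all tested genes). Without BH-KO replicate 1 it passed for 4 of 8, all with a positive value (21.1% of all tested genes passed and 12.2% with a positive value): Hsd3b2 at 4.04 (adjusted p = 0.00159), Hsd3b3 at 4.30 (0.000262), Hsd17b2 at 1.39 (0.00725) and Srd5a1 at 1.06 (0.0371). Those are differences between a KO label with high Arntl counts and one without.

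Hsd3b5 was set beside genes with known sex bias in mouse liver, since it is itself a gene of male liver and H-WT replicate 3 differed in Xist. The summed level of 10 male-biased genes was 2124, 2534 and 452 CPM in H-WT, 189 to 297 CPM in H-KO, 1230, 443 and 1383 CPM in BH-WT, and 2950, 239 and 209 CPM in BH-KO. In the BH-HF groups it was 6967 to 10240 CPM. Mup20 weighs heavily there, with a mean of 5174 CPM in BH-HF-WT and 99.3 CPM in BH-WT. The median log2 difference of the 10 genes between those 2 groups was 2.22. By group mean the male-biased sums and Hsd3b5 were both highest in BH-HF and lowest in H-KO, and within BH-KO both were highest in replicate 1. Within the WT groups at 10 weeks they did not always go together. H-WT replicate 2 was highest and BH-WT replicate 2 lowest of its group in both. H-WT replicate 3 had 0.699 CPM of Hsd3b5 (5 counts), above replicate 1 at 0.398 CPM (3 counts), against the order of their sums. BH-WT replicate 3 had 1.44 CPM, below replicate 1 at 3.36 CPM, again against that order. The sum of 11 female-biased genes was 456, 384 and 3101 CPM in H-WT, 1249 to 1599 CPM in H-KO, 1166, 2744 and 1167 CPM in BH-WT, 217 to 306 CPM in BH-KO and 30.3 to 180 CPM in BH-HF. In H-KO against H-WT 6 of 10 male-biased genes fell and none rose, and 3 of 11 female-biased genes fell and 1 rose. Of all tested genes 19.1% fell and 15.8% rose there. In BH-KO against BH-WT 1 male-biased gene rose and 5 female-biased genes fell, and without BH-KO replicate 1 none rose, while 3 male-biased and 2 female-biased genes fell. Of all tested genes 14.3% rose and 14.3% fell in BH-KO, and 21.6% fell without that replicate. In BH-HF-WT against BH-WT 2 male-biased genes rose and none fell, while 5 of 11 female-biased genes fell. Of all tested genes 2.79% rose and 4.21% fell in that comparison. Macrophage markers also differed, with a summed level of 146 to 938 CPM in BH-WT and 41.2 to 115 CPM in BH-KO. The part of these shifts in the level of Hsd3b5 or of the other members was not tested.

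**Figure D4:**
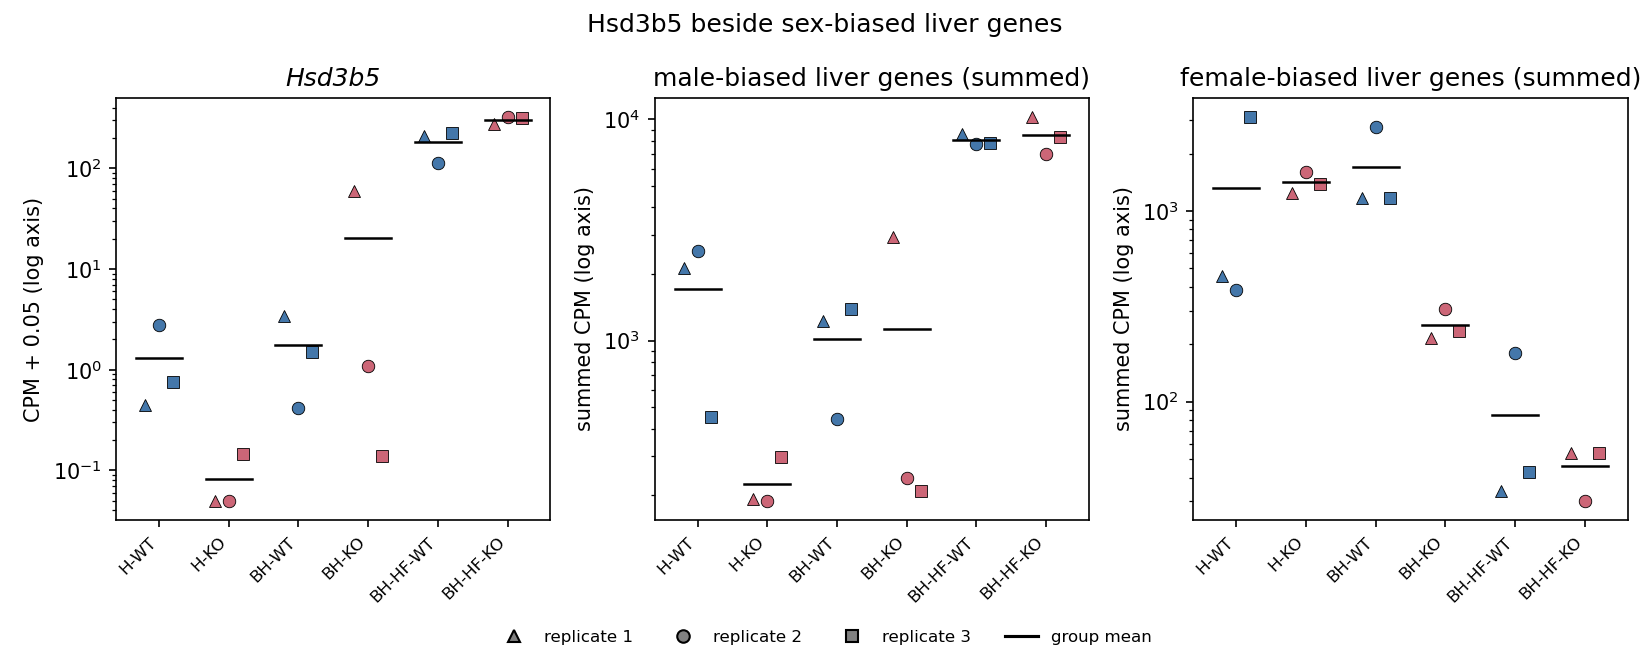
Hsd3b5 (CPM + 0.05), the summed level of 10 male-biased liver genes and that of 11 female-biased liver genes (CPM) in each library, on log axes, with a symbol for each replicate and a line for the group mean. BH-KO replicate 1 sits with 59.2 CPM of Hsd3b5 and 2950 CPM of the male-biased genes, above the other 2 BH-KO libraries, and H-WT replicate 3 has the highest female-biased sum at 3101 CPM.

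Levels of different genes were compared per kilobase of annotated exon. In H-WT, Hsd17b6 and Hsd11b1 had the highest means, at 172 ± 126 and 159 ± 16.1 CPM per kilobase, and did not differ beyond their spread. Hsd17b13 at 90.3 ± 9.22 and Hsd17b2 at 64.3 ± 8.92 followed Hsd11b1 in that order. Hsd17b6, with libraries from 36.4 to 285, could not be ordered against either of them. Srd5a1 at 19.5 ± 5.92, Hsd3b2 at 17.7 ± 2.11 and Hsd3b3 at 15.8 ± 7.42 could not be ordered within their spread, and Hsd3b5 at 0.820 ± 0.812 was last (SD, n = 3 for each). In the libraries labelled BH-HF-KO, Hsd3b5 had instead the highest mean of the 8, at 197 ± 17.2 CPM per kilobase. It did not differ beyond the spread from Hsd17b13 at 134.5 ± 107.9 or Hsd17b6 at 122.3 ± 101.2, each with 1 library above every Hsd3b5 value, and it lay above Hsd11b1 at 128.5 ± 20.3 in every library. In BH-WT and BH-KO Hsd11b1 had the highest mean, at 161 ± 21.4 and 124 ± 9.09, with Hsd17b13 at 158.2 ± 11.01 level with it in BH-WT. The exon length of Hsd3b3 includes a long transcript that does not code for protein, which lowers its value on this scale. The order of other members also depends on exon length, which was 4251 bases for Hsd11b1 and 1549 for Hsd3b5. In CPM without this division, Hsd11b1 (473 to 641) lay above Hsd3b5 (275 to 322) in every library labelled BH-HF-KO.

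Across the 18 libraries the members were compared pair by pair. On log2 CPM, Hsd3b2 and Hsd3b3 had a Pearson r of 0.978, Hsd3b2 and Hsd17b2 0.879, Hsd3b3 and Srd5a1 0.825, and Hsd3b2 and Hsd3b5 0.8, over libraries that share group structure and, for the Hsd3b genes, part of their sequence. Hsd17b6 had r of at most 0.34 with any other member. Hsd17b13 reached 0.531, with Hsd11b1. Hsd11b1 reached 0.647 with Hsd17b2 and 0.608 with Hsd3b3, and Hsd17b2 and Srd5a1 had 0.512. The genes most like each member in the whole table were C9 (r = 0.992) and Necab1 (0.988) for Hsd3b2, mt-Cytb (0.986) and C9 (0.985) for Hsd3b3, and Mup21 (0.953) and Scp2 (0.929) for Hsd3b5. For Hsd11b1 they were Pdk1 (0.903) and Aldh5a1 (0.891), for Hsd17b2 Cyp2c70 (0.958) and Ccny (0.955), and for Srd5a1 Ldah (0.925) and Letm1 (0.923). No gene went beyond 0.706 (Nqo2) for Hsd17b6 or 0.727 (Nmd3) for Hsd17b13. These values are descriptions over 18 libraries from 6 groups.

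The enzymes and receptors around the members moved as follows, and the counts of these lists stand beside the shares of all tested genes. Of all tested genes, 19.1% fell and 15.8% rose in H-KO against H-WT. The shares were 14.3% fell and 14.3% rose in BH-KO against BH-WT. Without BH-KO replicate 1, 41% were called in that comparison and 21.6% fell. Of 10 other hydroxysteroid dehydrogenases tested, 7 fell and 1 rose in H-KO against H-WT, and 5 fell and 1 rose in BH-KO against BH-WT (7 and 1 without BH-KO replicate 1). Rdh16, a retinol and hydroxysteroid dehydrogenase, was at 179 ± 54.5 CPM in H-WT and 2.22 ± 0.837 CPM in H-KO (SD, n = 3 each) and fell by 6.33 ± 0.702 (adjusted p = 3.74e-05). In BH-KO it fell by 3.00 ± 0.585 (adjusted p = 0.00256; -4.398 ± 0.391 without replicate 1, adjusted p = 1.09e-06), with no library above 27.7 CPM where BH-WT had at least 72.5 CPM. Its relative Rdh9 fell by 4.89 ± 0.566 in H-KO and by 2.95 ± 0.486 in BH-KO (-3.77 ± 0.473 without replicate 1). Hsdl2, a peroxisomal relative, was the 1 that rose, by 0.83 ± 0.143 in H-KO and 0.68 ± 0.143 in BH-KO (0.84 ± 0.117 without replicate 1).

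Of 9 aldo-keto and other ring reductases tested, 5 fell and none rose in H-KO, and 1 fell and 1 rose in BH-KO (4 and 3 of 10 tested without BH-KO replicate 1). Akr1c14, which reduces the keto group at carbon 3, was at 601 ± 41.8 CPM in H-WT and 159 ± 25.1 CPM in H-KO (SD, n = 3 each), a fall of 1.91 ± 0.368 (adjusted p = 0.00108). It fell by 1.13 ± 0.36 in BH-KO (adjusted p = 0.0286), and by 1.99 ± 0.195 without BH-KO replicate 1 (adjusted p = 8.29e-07). Its relative Akr1c20 rose there by 1.67 ± 0.303 (adjusted p = 0.00127), and by 1.97 ± 0.248 without that replicate (adjusted p = 2.05e-05). Srd5a2, the relative of Srd5a1, fell by 2.01 ± 0.697 in H-KO (adjusted p = 0.0348) from a low level.

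Among 12 genes of steroid hydroxylation, sulfation and cofactor supply, 3 rose and 4 fell in H-KO, and 1 rose and none fell in BH-KO (2 and 3 without BH-KO replicate 1). Sult1e1, the estrogen sulfotransferase, rose from 0.269 ± 0.28 CPM in H-WT to 29.96 ± 11.7 CPM in H-KO (SD, n = 3 each; 6.75 ± 1.72 on the log2 scale, adjusted p = 0.00816). In BH-KO it rose by 8.56 ± 1.79 (adjusted p = 0.00391), with libraries at 0.148, 56.2 and 170 CPM, the lowest of them, replicate 1, in the BH-WT range; without it the rise was 9.13 ± 1.07 (adjusted p = 3.21e-05). Cyp17a1, a hydroxylase and lyase of steroid synthesis, rose by 4.28 ± 0.881 in H-KO (adjusted p = 0.00221), to 355 ± 34.1 CPM. Sult2a8, a sulfotransferase of bile acids and steroids, fell by 6.51 ± 1.41 in H-KO (adjusted p = 0.00307), from 880 ± 110 to 9.63 ± 5.77 CPM.

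Of 7 steroid receptors, carriers and response genes tested, 4 fell and 1 rose in H-KO, and 3 fell and 1 rose in BH-KO (4 and 0 without BH-KO replicate 1). Esr1, the estrogen receptor, rose by 1.13 ± 0.401 in H-KO (adjusted p = 0.0413). Tsc22d3, a gene induced by glucocorticoids, fell by 1.49 ± 0.388 in H-KO (adjusted p = 0.00848) and rose by 1.15 ± 0.381 in BH-KO (adjusted p = 0.0363), a call that was lost without BH-KO replicate 1 (0.80 ± 0.398, adjusted p = 0.126). Nr3c2, the mineralocorticoid receptor, fell by 1.64 ± 0.162 in BH-KO (adjusted p = 7.64e-06; -1.74 without replicate 1, adjusted p = 1.54e-06), its libraries at 8.18 to 10.2 CPM against at least 27.3 CPM in BH-WT. No gene of these 4 lists was called in the libraries labelled BH-HF-KO against BH-HF-WT.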

How the data were processed

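Liver RNA was sequenced in 18 libraries, 3 in each of 6 groups that the labels call biological replicates. The authors deposited 1 table of whole-number counts per gene. Per the submitters' processing notes, reads were mapped with STAR 2.6 to mm10; the sources name no counting tool, annotation, strand setting or rule for multi-mapping reads. Counts were tested with edgeR 4.0.16 (R 4.3.3; quasi-likelihood test with robust fit, TMM factors, filterByExpr with a minimum count of 10) over all 18 libraries with a mean per group, and p-values were adjusted by Benjamini-Hochberg over all 13958 genes tested. A gene was called at an adjusted p under 0.05. The SE is the log2 difference divided by the square root of the F value. The code was tested on simulated data. Alternatives were DESeq2 1.42.0, limma 3.58.1 (voom), other scalings and filters, the compared groups alone, a replicate block, and leaving out each library. Leaving out BH-KO replicate 1 and H-WT replicate 3 together was chosen after seeing the data. Members and lists were chosen with earlier results of these data known. Genes named from a list are those with the greatest changes among the genes that passed, at most 2 in each direction, and like genes are those with the highest Pearson r at a mean of at least 5 CPM. Sequences came from RefSeq (GRCm38.p6) and GENCODE M21, and intervals and floors cover counting error only. One gene of the lists is not reported here.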

Additional observations from a re-analysis of the deposited data

Results flagged for a closer look

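The KO difference of Hsd3b2, -7.675 in H and 0.08 in BH on the log2 scale, was tested between the lines. The BH value minus the H value was 7.757 (SE 2.01, adjusted p = 0.0378 by edgeR). With all libraries the gene was called as lower in H only. In the H line all 3 KO libraries held between 1 and 4 counts, while BH-KO held 938 counts in replicate 1 and at least 19 in the others. Without BH-KO replicate 1 the BH difference was -4.16, and the BH value minus the H value was 3.52 ± 1.10 and did not pass (adjusted p = 0.068). The call was lost in 19 of 27 alternatives. Among them were limma-voom (adjusted p = 0.391), and edgeR without a filter (0.102) or on the compared groups alone (0.103).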

How the results depend on the processing

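Over 1718 member results under alternatives, 1619 kept direction and side of the threshold, 65 lost a call, 30 gained one and 4 turned direction; the causes were not tested. The turns were Hsd3b2 in BH-KO against BH-WT, at -4.16 without BH-KO replicate 1 and also with H-WT replicate 3 left out too (-4.16), and Hsd3b2 in the interaction with the high-fat setting, at 4.04 in both; leaving out 1 library at a time moved them from -4.16 to 0.66 and from -0.78 to 4.04. With both libraries left out, members called were 4 for BH-KO against BH-WT, 0 for the interaction with line, 4 for the interaction with the high-fat setting, 3 for BH-HF-WT against BH-WT and 2 for BH-KO against H-KO. BH-KO against BH-WT gave 1 with limma-voom. The interaction with line gave 0 without a filter, 3 with DESeq2, 0 with limma-voom and 0 from the compared groups alone. BH-HF-WT against BH-WT gave 0 with DESeq2, where Hsd3b5, the member called by edgeR, had no adjusted p in this or any comparison, and 2 from the compared groups alone. BH-KO against H-KO gave 2 without a filter, 2 with limma-voom and 0 from the compared groups alone, in which Hsd3b5 was not tested. Leaving out 1 library at a time gave 4 to 6 calls for H-KO against H-WT, 0 to 4 for BH-KO against BH-WT, 0 to 3 for the interaction with line, 0 to 4 for the interaction with the high-fat setting, 0 to 3 for BH-HF-WT against BH-WT and 1 to 6 for BH-KO against H-KO. In H-KO against H-WT, Hsd3b2 did not pass with limma-voom (adjusted p = 0.08), and Hsd3b5 passed as lower without BH-KO replicate 1 (adjusted p = 0.035). With the replicate number as a block, members called were 5, 0, 0, 1, 0, 0, 1 and 4 in the 8 comparisons, so BH-KO against H-KO lost 1 (Hsd11b1, adjusted p = 0.063); same-numbered libraries did not deviate together (r from -0.254 to 0.13 over 45 pairs, 3 over 0.1), so the numbers give no pairing. With upper-quartile scaling the median log2 difference of all genes moved to 0.154 in H-KO against H-WT and 0.108 in BH-KO against BH-WT, and genes called were 3338 higher and 2063 lower, against 2209 and 2662, in the first. Over all genes, BH-KO against BH-WT gave 3990 calls and 1096 from the compared groups alone; the interaction with the high-fat setting gave 851, and 3046 without BH-KO replicate 1. With 3 libraries a group, levels near 3 counts limit Hsd3b2 and Hsd3b5 in H-KO.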
